A study of Mus musculus with 26 samples.

Results

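Transcripts of 42 genes for mitochondrial protein import and protein quality control were described in a lower hindlimb preparation, TA/EDL (tibialis anterior with extensor digitorum longus), of 26 mice, measured on 1-colour Affymetrix arrays with 1 array per mouse. Members were chosen by name: the platform symbol had to start with Timm or Tomm and a number, or to be on a list of import, chaperone, protease and prohibitin genes, and the probe set (a group of probes summarised as 1 value) had to name a single gene. This gave 93 of the 34945 probe sets that name 1 gene, and 41 of the 42 members were among the 14847 genes bright enough to be tested. The member left out of the tests was Timm8a2, whose group medians were 80.8 to 86.5 intensity units, near the floor of the arrays. The prohibitin gene Phb is on the list, but its probe sets name 2 genes and it was not analysed here.

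Mice were FLOX animals, the controls, or littermates labelled MKO, a knockout of PGC-1a (gene Ppargc1a) restricted to skeletal muscle, on a mixed C57/BL6 and 129 background and housed singly. The sources used here do not state the driver of the deletion, or the age or sex of the mice. Control-diet mice, 6 FLOX and 7 labelled MKO, were given 90% of their own earlier free intake. Calorie-restricted (CR) mice, 6 FLOX and 7 labelled MKO, were given 80% in the first week and then a diet formulated for 40% restriction, fed at 60%, for about 11 weeks. All groups were thus fed below free intake. The p-values measure the spread between mice.

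Nearly all mitochondrial proteins are made in the cytosol and imported. The TOM complex of the outer membrane admits precursors, small TIM chaperones carry hydrophobic proteins across the intermembrane space, the TIM22 complex inserts carriers into the inner membrane, and the TIM23 channel with its ATP-driven motor pulls presequence proteins into the matrix, where a processing peptidase removes the presequence and chaperones fold the product. Proteases of the matrix and inner membrane, with prohibitin as a scaffold, degrade what is misfolded. In skeletal muscle PGC-1a is known as a coactivator of nuclear genes for mitochondrial proteins, through factors such as ERRα, NRF-1, GABPA and YY1.

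The arrays had medians of 212 to 232 and correlated at 0.984 to 0.996 within groups, and no 2 arrays were identical. The markers of muscle fibres, most but not all of them of fast fibres, were bright on every array, with a summed intensity of 266000 to 281641. The targeted gene went against the label: all 5 Ppargc1a probe sets tested were brighter in the mice labelled MKO, 1.53- to 1.76-fold on the control diet and 1.34- to 1.57-fold on CR. The brightest of them read 911 ± 67.3 (SD, n = 6) in control-diet FLOX mice and 1542 ± 372 (SD, n = 7) in control-diet mice labelled MKO, and 1104 ± 189 and 1674 ± 160 on CR. The sources used here do not say where these probes lie relative to the deletion. Probes outside it check nothing, so every genotype direction below rests on the labels.

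Import and quality control transcripts were mostly lower in the mice labelled MKO. On the control diet 19 members fell and 1 rose among the 41 tested (limma, Benjamini-Hochberg adjustment over all genes, adjusted p below 0.05), where 10.2% of all genes tested fell, 9.06% rose and 19.3% were called in either direction. On CR 16 members fell and 2 rose, where 9.05% of all genes fell, 8.23% rose and 17.3% were called. The median log2 change over the members, labelled MKO minus FLOX, stood at -0.12 under the control diet and -0.11 under CR, beside -0.02 over all genes on either diet. In bulk muscle, fewer mitochondria-rich cells and less RNA of these genes per cell cannot be told apart.

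The 2 genotype comparisons share no mice. They had 15 called members in common, 75% of the control-diet calls and 83.3% of the CR calls, against 57.0% and 63.6% over all genes. The changes had the same sign on both diets for 38 of 41 members, against 76.8% of all genes. Across members the 2 sets of changes correlated at r = 0.92, and across all genes at 0.78; genes measured on the same arrays are not independent, so this is a description. The mice of the groups did not overlap at all for 8 members on the control diet (6.63% of all genes) and for 12 on CR (7.71% of all genes).

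**Figure D1:**
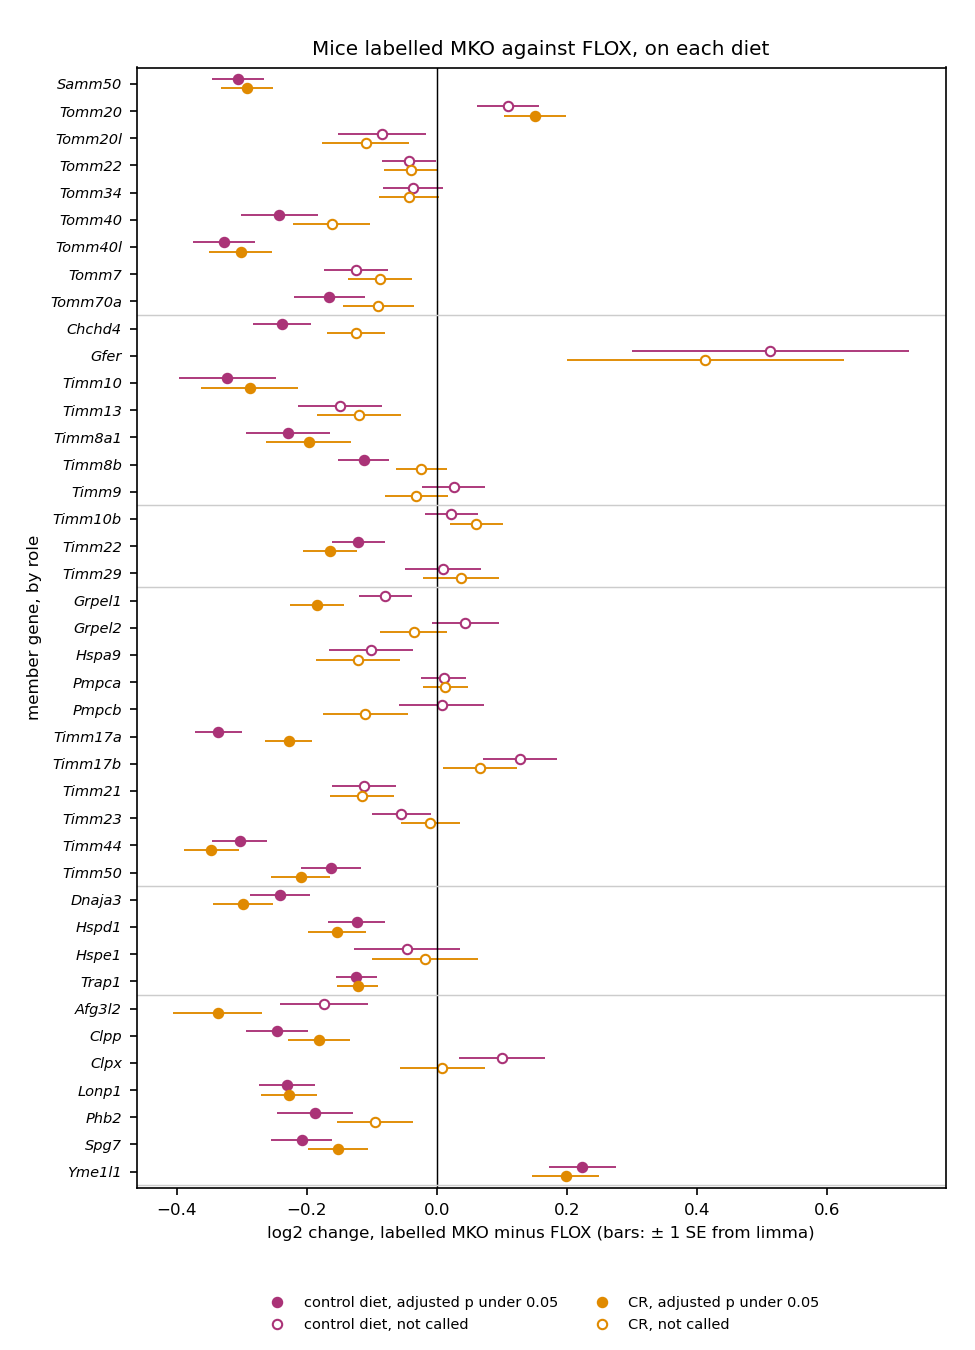
Log2 change (labelled MKO minus FLOX, horizontal axis, ± 1 SE from limma) of each of 41 members, ordered by role, on the control diet (purple) and on CR (orange); filled points passed an adjusted p of 0.05. Most points lie left of 0 on both diets, with Timm44, Samm50, Tomm40l and Timm10 near -0.3 and Yme1l1 filled on the right on both diets. Timm17a lies near -0.3 on the control diet and nearer to 0 on CR.

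At the outer membrane 4 of 9 members fell on the control diet (median log2 change -0.12) and 2 of 9 on CR (median -0.09). Beside this and each role group below, 10.2% of all genes fell on the control diet and 9.05% on CR. Samm50, the channel of the machinery that inserts barrel proteins into the outer membrane, read 4736, 4915 and 5080 (lowest, median and highest mouse) in control-diet FLOX mice and 3548, 4015 and 4343 in control-diet mice labelled MKO. On CR it read 4872, 4977 and 5307 in FLOX mice and 3771, 4156 and 4235 in mice labelled MKO. On both diets the brightest mouse labelled MKO lay below the dimmest FLOX mouse. The log2 change was -0.31 ± 0.04 (SE; 1.24-fold lower; adjusted p = 4.15e-06) on the control diet and -0.29 ± 0.04 (1.22-fold; 5.46e-06) on CR.

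Tomm40l, a second form of the TOM channel, had a similar course. Its intensity was 859, 1017 and 1123 in control-diet FLOX mice and 754, 793 and 852 in control-diet mice labelled MKO, and 844, 917 and 1004 against 685, 749 and 787 on CR. Neither pair of groups overlapped, and the log2 change was -0.33 ± 0.05 (adjusted p = 2.01e-05) on the control diet and -0.30 ± 0.05 (4.76e-05) on CR. Tomm40, the TOM channel itself, fell on the control diet by 0.24 ± 0.06 on the log2 scale (adjusted p = 0.0042), from 738, 778 and 927 in FLOX mice to 599, 674 and 732, without overlap. On CR its change was -0.16 ± 0.06 (adjusted p = 0.0573), and the groups overlapped. It was called lower on CR with the replicate block (-0.17, adjusted p = 0.0405) and without the 2 arrays brightest in slow fibre markers (-0.19, 0.0215).

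The TOM receptors gave mixed values. Tomm20, the receptor for presequences, read 5215, 5747 and 5886 in CR FLOX mice and 5830, 6314 and 6776 in CR mice labelled MKO, and was the single outer-membrane member that rose (log2 change 0.15 ± 0.05, adjusted p = 0.0268). The 2 groups overlapped, and the call was lost without CR FLOX mouse 2 or 4 or CR MKO mouse 3 (adjusted p up to 0.0787) and under quantile normalization. On the control diet Tomm20 changed by 0.11 ± 0.05, which did not pass (adjusted p = 0.111). Tomm22, the central receptor, gave -0.04 ± 0.04 on either diet (adjusted p = 0.511 and 0.566).

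Tomm70a, the receptor for carrier precursors, gave a call that hung on the probe set. The brightest of its 4 probe sets fell on the control diet, from 1570, 1674 and 1903 to 1378, 1491 and 1689 (log2 change -0.17 ± 0.05, adjusted p = 0.0314), with overlap between the groups. With probe sets whose suffix marks a possible match to several transcripts left out, the value was 0.14 (adjusted p = 0.168). The call was also lost in the mean over probe sets, with only the groups compared in the fit, without control-diet MKO mouse 3, 4 or 6 or mouse 1 or 2 of control-diet FLOX (adjusted p up to 0.101), and without the 2 arrays brightest in slow fibre markers. On CR the change was -0.09 ± 0.05 (adjusted p = 0.282).

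In the intermembrane space 4 of 7 members fell on the control diet (Chchd4, Timm10, Timm8a1 and Timm8b) and 2 of 7 on CR (Timm10 and Timm8a1). Chchd4, the oxidoreductase of the disulfide relay that traps small cysteine-rich proteins there, read 1200, 1314 and 1457 in control-diet FLOX mice and 1031, 1136 and 1201 in control-diet mice labelled MKO (log2 change -0.24 ± 0.04, adjusted p = 0.00039). These groups touched at 1201 and 1200. On CR the change was -0.12 ± 0.04 (adjusted p = 0.054), and 5 alternatives called it lower (0.0358 to 0.04997). Gfer, which reoxidises Chchd4, ranged from 531 to 1617 over all mice, and its changes of 0.51 ± 0.21 and 0.41 ± 0.21 did not pass (adjusted p = 0.0929 and 0.199).

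Among the small TIM chaperones, Timm10 gave log2 changes of -0.32 ± 0.08 on the control diet and -0.29 ± 0.08 on CR (adjusted p = 0.003 and 0.00748). Its partner Timm9 gave 0.03 ± 0.05 and -0.03 ± 0.05, and neither passed (adjusted p = 0.755 and 0.717). Timm8a1, the mouse counterpart of the human deafness-dystonia gene, gave -0.23 ± 0.07 and -0.20 ± 0.07 (adjusted p = 0.0136 and 0.0367). On CR its call was lost under median centring and without CR FLOX mouse 1, 5 or 6 or CR MKO mouse 2, 3, 5 or 7 (adjusted p up to 0.0902). Timm8b fell on the control diet by 0.11 ± 0.04 (adjusted p = 0.0449), a call lost under median centring, with only the groups compared, without the arrays brightest in slow fibre markers, and without any of 14 single mice (control-diet FLOX 1, 3, 4, 5 or 6, control-diet MKO 2, 3, 4 or 5, CR FLOX 1 or 3, CR MKO 2, 4 or 6; adjusted p up to 0.112).

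Of the TIM22 complex, which inserts metabolite carriers into the inner membrane, only its channel Timm22 was called among 3 members. It gave -0.12 ± 0.04 on the control diet and -0.16 ± 0.04 on CR (adjusted p = 0.0385 and 0.00542). The control-diet call was lost under median centring, with the replicate block, with only the groups compared, without the arrays brightest in slow fibre markers, and without control-diet MKO mouse 4, 5 or 7 or mouse 4, 5 or 6 of control-diet FLOX (adjusted p up to 0.114). Timm10b gave 0.02 ± 0.04 on the control diet (adjusted p = 0.748) from the brightest of 4 probe sets; the mean over its probe sets gave -0.12 (adjusted p = 0.0331), and the 1 probe set without a suffix gave -0.54 (adjusted p = 0.00115).

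Of the TIM23 channel, its motor and the processing peptidase, 3 of 11 members fell on the control diet and 4 of 11 on CR, and none rose. Timm17a, a channel subunit with 1 probe set, read 4767, 4992 and 5303 in control-diet FLOX mice and 3681, 3998 and 4256 in control-diet mice labelled MKO. On CR it read 5053, 5217 and 5348 against 4170, 4442 and 4672. No mouse labelled MKO reached the level of any FLOX mouse on the same diet. The log2 change was -0.34 ± 0.04 (1.26-fold lower; adjusted p = 1.7e-07) and -0.23 ± 0.04 (1.17-fold; 3.51e-05). Its relative Timm17b gave 0.13 ± 0.06 and 0.07 ± 0.06 (adjusted p = 0.118 and 0.475; 0.15 and called higher on the control diet under median centring, 0.0328), and Timm23, the channel subunit both join, -0.05 ± 0.05 and -0.01 ± 0.05 (0.446 and 0.917).

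Timm44, which tethers the import motor to the channel, read 1733, 1862 and 2091 in control-diet FLOX mice and 1415, 1556 and 1625 in control-diet mice labelled MKO, and 2081, 2173 and 2314 against 1650, 1731 and 1768 on CR. The groups were apart on both diets. The log2 change was -0.30 ± 0.04 (adjusted p = 1.01e-05) on the control diet and -0.35 ± 0.04 (1.27-fold lower; 8.9e-07) on CR. Timm50, the receptor of the channel, fell by 0.16 ± 0.05 and 0.21 ± 0.05 (adjusted p = 0.0122 and 0.00164), and both calls were lost with probe sets that carry a suffix left out, the first also with only the groups compared.

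Of the motor, Grpel1, the nucleotide exchange factor of its Hsp70, gave -0.08 ± 0.04 on the control diet (adjusted p = 0.187) and fell on CR by 0.18 ± 0.04 (0.00201), where 2493, 2586 and 2850 in FLOX mice stood above 2160, 2280 and 2419 without overlap. The Hsp70 itself, Hspa9, gave -0.10 ± 0.06 and -0.12 ± 0.06 and did not pass (adjusted p = 0.294 and 0.215). It was called lower on both diets under quantile normalization, at -0.17 (adjusted p = 0.0451) and -0.18 (0.0325), and in the mean over its 5 probe sets, at -0.13 (0.00581) and -0.12 (0.00876). Pmpcb, the catalytic subunit of the processing peptidase, gave 0.01 ± 0.07 and -0.11 ± 0.07 (adjusted p = 0.954 and 0.281). Its probe set without a suffix was called lower on both diets, at -0.14 (adjusted p = 0.0148) and -0.21 (0.000343), and the mean over its probe sets on CR, at -0.16 (0.00775).

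Among 4 matrix chaperones 3 fell on each diet (Dnaja3, Hspd1 and Trap1). Dnaja3, a J-protein that works with Hspa9, read 2243, 2346 and 2446 in control-diet FLOX mice and 1748, 1946 and 2261 in control-diet mice labelled MKO, and 2566, 2762 and 2894 against 2120, 2199 and 2405 on CR. The control-diet groups overlapped between 2243 and 2261, and the CR groups were apart. The log2 change was -0.24 ± 0.05 (adjusted p = 0.000476) and -0.30 ± 0.05 (3.17e-05), the second lost with suffixed probe sets left out. Trap1, the mitochondrial Hsp90, gave -0.12 ± 0.03 on both diets (adjusted p = 0.00596 and 0.00741), with the groups apart each time.

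The subunits of the chaperonin that folds imported proteins in the matrix had these values. Hspd1 (Hsp60) fell by 0.12 ± 0.04 on the control diet (adjusted p = 0.0496) and by 0.15 ± 0.04 on CR (0.015). The control-diet call was lost without 21 of the 26 mice taken singly (all but control-diet MKO 3 and 4, CR FLOX 2 and CR MKO 3 and 5; adjusted p up to 0.121), and with a pseudocount of 1, no filter, median centring, suffixed probe sets left out, only the groups compared or the replicate block; the CR call was lost under median centring. Hspe1 (Hsp10), its lid, gave -0.05 ± 0.08 and -0.02 ± 0.08 (adjusted p = 0.739 and 0.912).

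Of 7 protease and prohibitin members 4 fell and 1 rose on each diet. Lonp1, the matrix protease for oxidised and misfolded proteins, read 1287, 1358 and 1434 in control-diet FLOX mice and 1010, 1190 and 1233 in control-diet mice labelled MKO, and 1208, 1330 and 1394 against 1044, 1118 and 1173 on CR. The groups were apart on both diets, with log2 changes of -0.23 ± 0.04 each time (adjusted p = 0.000362 and 0.000379). Clpp, the proteolytic subunit of the matrix ClpXP protease, fell by 0.25 ± 0.05 and 0.18 ± 0.05 (adjusted p = 0.000608 and 0.00846). Its unfoldase Clpx gave 0.10 ± 0.07 and 0.01 ± 0.07 (adjusted p = 0.309 and 0.952).

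At the inner membrane the members moved in both directions. Yme1l1, the protease facing the intermembrane space, was the 1 member that rose on both diets, reading 508, 548 and 594 in control-diet FLOX mice against 580, 653 and 711, and 477, 553 and 591 against 593, 612 and 660 on CR. The CR groups were apart, and the log2 change was 0.22 ± 0.05 (adjusted p = 0.0029) and 0.20 ± 0.05 (0.00777). In a fit over all probe sets, 1 of its 4 was called higher on the control diet and 2 of 4 on CR. On the control diet 3 of the 4 were positive, and on CR all 4. The proteases facing the matrix gave falls: Spg7 by 0.21 ± 0.05 and 0.15 ± 0.05 (adjusted p = 0.00213 and 0.023, the second lost under median centring and, at 0.0569, without CR FLOX mouse 5), and Afg3l2, its partner, by 0.34 ± 0.07 on CR (0.000752), with -0.17 ± 0.07 on the control diet (0.0757). On the control diet Afg3l2 was called lower with suffixed probe sets left out (-0.31, adjusted p = 0.00211), in the mean over probe sets (-0.24, 0.00402) and under quantile normalization (-0.20, 0.0378). Phb2 fell on the control diet by 0.19 ± 0.06 (adjusted p = 0.0243), a call lost under median centring, with only the groups compared, without the arrays brightest in slow fibre markers and without control-diet MKO mouse 1 or 4 or mouse 5 or 6 of control-diet FLOX (up to 0.0665), and gave -0.10 ± 0.06 on CR (0.294). On CR the mean over its probe sets was called, at -0.13 (adjusted p = 0.0391).

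**Figure D2:**
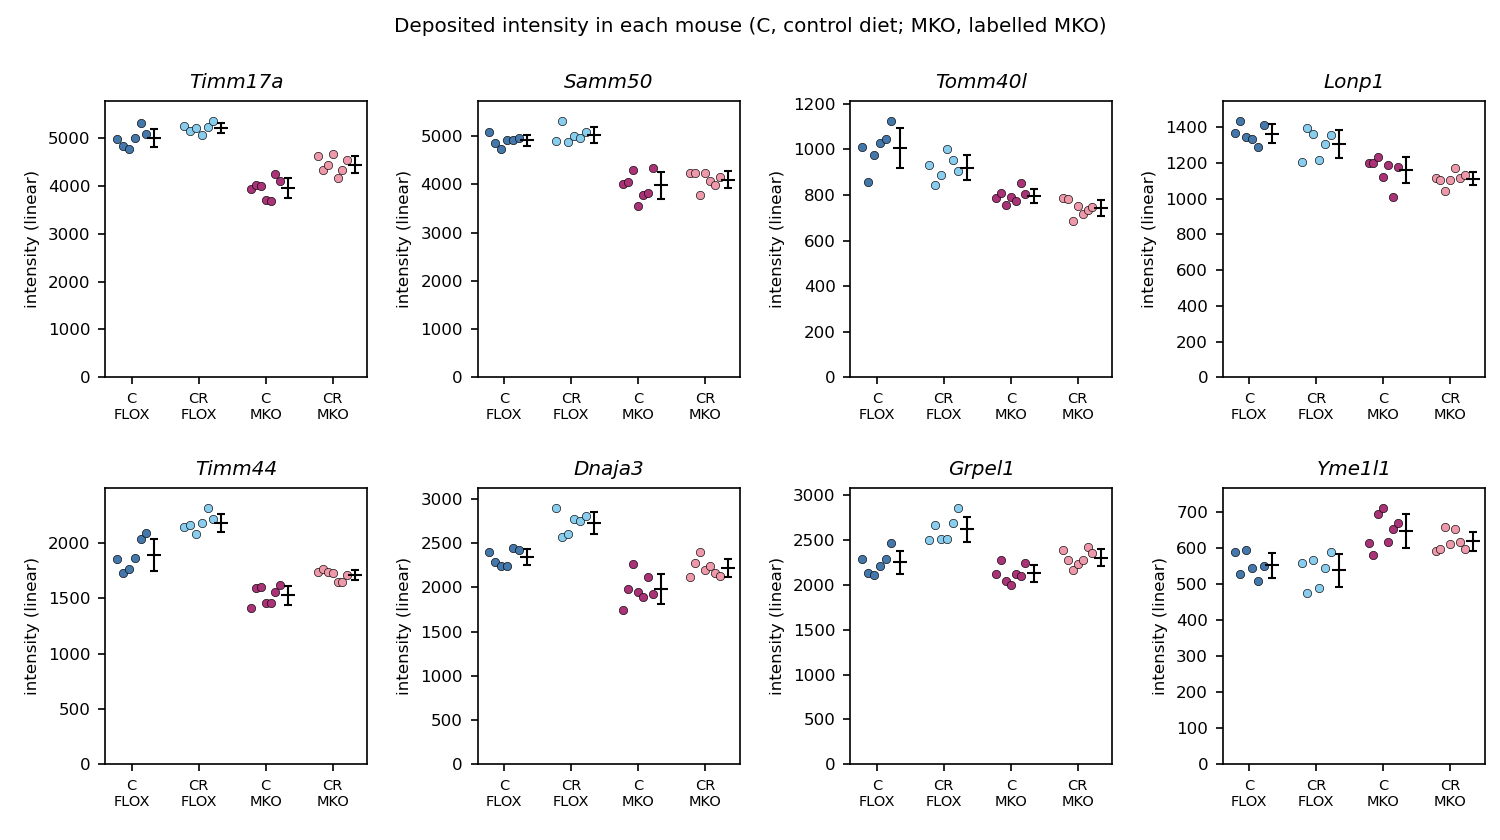
Deposited intensity (linear, axes from 0) of 8 members in each of 26 mice, with the group mean ± SD in black beside the points (n = 6 FLOX and 7 labelled MKO mice per diet; C, control diet). In Timm17a, Samm50, Tomm40l, Lonp1 and Timm44 every mouse labelled MKO lies below every FLOX mouse on its diet, while Yme1l1 lies higher in the mice labelled MKO.

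Called members with several probe sets mostly had all of these on 1 side of 0. By genotype this held for 9 of 12 on the control diet and 12 of 12 on CR. In none was a second probe set called the opposite way, but all probe sets were called in only 6 and 5 of the 12. By diet it held for 5 of 7 in FLOX mice and 6 of 7 in mice labelled MKO, with all probe sets called in 1 and 2. Members not called, such as Timm10b, are outside these counts. The markers of slow fibres, which hold more mitochondria than many fast ones, had higher medians in the mice labelled MKO, with ranges that overlapped. Their summed intensity over 6 genes was 2724 to 7899 (median 3536) against 3162 to 9255 (median 5484) on the control diet. On CR it was 2650 to 5267 (3356) against 4095 to 17572 (4443), where 17572 was CR MKO mouse 6. On the control diet 0 of the 6 genes were called higher and on CR 1, where 9.06% and 8.23% of all genes rose. Without the 2 arrays brightest in these markers, control-diet MKO mouse 4 and CR MKO mouse 6, the counts were 15 lower and 1 higher on the control diet and 18 lower and 2 higher on CR. In that fit 16.4% of all genes were called in either direction on the control diet and 15.6% on CR. The part of the remaining difference in slow fibre markers was not tested.

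RefSeq promoters (build GRCm38.p6, 250 bases before to 50 after the gene's start) were at hand for 36 of the 42 members and were searched on both strands for motifs of the factors PGC-1a is known to act through. The YY1 motif AANATGGCG was in 4 members (Phb2, Samm50, Timm44 and Timm50), 11.1% of those matched against 2.76% of 27025 genes. The GABPA motif CCGGAAGTG was in 6 (Phb2, Timm10, Timm23, Timm29, Timm8a2 and Tomm70a), 16.7% against 2.25%. Of these, 3 were called lower by genotype on at least 1 diet (Phb2, Timm10 and Tomm70a), and Timm8a2 was not tested. The NRF-1 motif, GCGCA and GCGC with 1 free base between them, was in 6 (Chchd4, Dnaja3, Hspd1, Spg7, Timm8b and Tomm20), 16.7% against 5.19%. The ERRα motif TNAAGGTCA was in 1, Timm8b, 2.78% against 1.43%. A match describes letters in this window and not a bound site. The windows of Samm50 and Timm44, which were lower in the mice labelled MKO on both diets, are shown for their YY1 match near the start, in capitals. Samm50 lies on the plus strand (chr15:84191990-84192289) and Timm44 on the minus strand (chr8:4275856-4276155).
Samm50: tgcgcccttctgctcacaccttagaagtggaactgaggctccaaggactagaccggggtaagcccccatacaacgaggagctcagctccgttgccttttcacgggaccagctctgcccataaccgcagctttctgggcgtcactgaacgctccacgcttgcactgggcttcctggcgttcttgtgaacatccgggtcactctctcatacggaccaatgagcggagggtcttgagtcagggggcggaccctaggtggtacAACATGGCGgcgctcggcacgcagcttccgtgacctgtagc
Timm44: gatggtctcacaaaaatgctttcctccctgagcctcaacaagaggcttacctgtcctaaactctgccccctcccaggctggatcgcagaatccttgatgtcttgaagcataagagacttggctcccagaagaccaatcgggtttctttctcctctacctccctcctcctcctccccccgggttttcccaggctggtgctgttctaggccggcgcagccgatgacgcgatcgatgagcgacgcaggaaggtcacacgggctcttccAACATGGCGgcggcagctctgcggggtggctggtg

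Dnaja3, lower in the mice labelled MKO and called higher on CR in 1 of its 3 probe sets, carries 2 NRF-1 matches (chr16:4683820-4684119, plus strand), 1 on each strand. Timm8b, the 1 member with the ERRα letters, carries that match and 1 NRF-1 match (chr9:50603651-50603950, plus strand). Capitals mark the matches, and none of them overlaps another in the 4 windows shown.
Dnaja3: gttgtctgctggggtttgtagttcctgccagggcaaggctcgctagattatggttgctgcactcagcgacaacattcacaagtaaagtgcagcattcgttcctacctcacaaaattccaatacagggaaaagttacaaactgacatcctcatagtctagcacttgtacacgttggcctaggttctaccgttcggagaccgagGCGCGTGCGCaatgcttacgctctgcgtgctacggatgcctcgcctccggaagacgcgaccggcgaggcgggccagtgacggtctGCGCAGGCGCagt
Timm8b: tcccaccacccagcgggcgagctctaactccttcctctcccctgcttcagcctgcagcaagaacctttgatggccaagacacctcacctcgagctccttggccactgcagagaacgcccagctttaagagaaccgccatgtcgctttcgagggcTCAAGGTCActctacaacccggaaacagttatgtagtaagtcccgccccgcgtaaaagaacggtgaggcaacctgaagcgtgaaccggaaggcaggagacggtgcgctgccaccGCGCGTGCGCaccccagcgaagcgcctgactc

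Calorie restriction moved fewer members, and those called with the settings used throughout rose. In FLOX mice 8 of 41 members rose and 0 fell, where 4.66% of all genes rose, 5.37% fell and 10.0% were called in either direction. In mice labelled MKO 10 rose and 0 fell, where 6.64% rose, 8.49% fell and 15.1% were called. The median log2 change over the members, CR minus control diet, was 0.06 in FLOX mice and 0.05 in mice labelled MKO, beside 0.00 over all genes in both. Under median centring 6 members rose and 1, Chchd4, fell in FLOX mice (-0.14, adjusted p = 0.0425). Spg7 gave -0.15 ± 0.05 in FLOX mice (adjusted p = 0.0543), with every CR mouse below every control-diet mouse, and was called lower under 5 alternatives: a pseudocount of 64, the 50th percentile filter, the mean over probe sets, only the groups compared, and without the arrays brightest in slow fibre markers (adjusted p 0.0194 to 0.0498). With suffixed probe sets left out, the counts were 3 of 35 members in FLOX mice and 4 of 35 in mice labelled MKO. Under that setting 9.23% and 14.1% of all genes were called in either direction, so members were called no more often than genes at large. In FLOX mice the count was 5 without CR mouse 6 or control-diet mouse 3 or 5. In mice labelled MKO it was 6 with only the groups compared (11.6% of all genes called). It was also 6 without the 2 arrays brightest in slow fibre markers (10.7% of all genes called).

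The 2 diet comparisons share no mice. In common they had 7 called members, 87.5% of the calls in FLOX mice and 70% of those in mice labelled MKO, against 65.1% and 43.2% over all genes. The sign was the same for 39 of 41 members, against 71.6% of all genes, and the changes correlated at r = 0.83 across members and 0.75 across all genes, as a description. The groups did not overlap for 6 members in FLOX mice (5.40% of all genes) and for 1 in mice labelled MKO (3.48%).

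**Figure D3:**
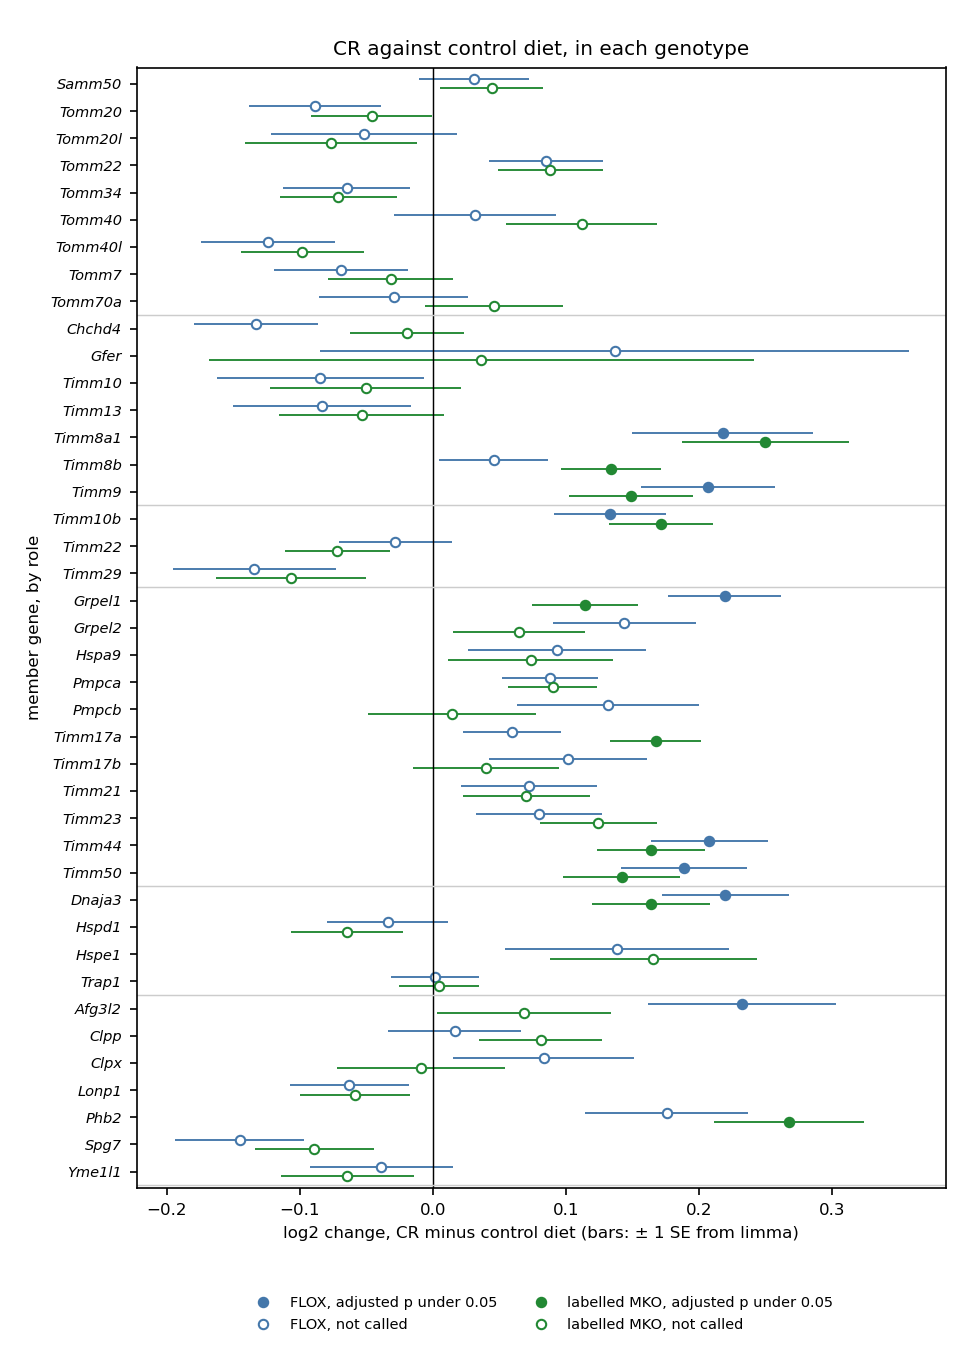
Log2 change (CR minus control diet, horizontal axis, ± 1 SE from limma) of each of 41 members, ordered by role, in FLOX mice (blue) and in mice labelled MKO (green); filled points passed an adjusted p of 0.05. The 11 members of the TIM23 group all lie right of 0 in both genotypes, and no filled point lies left of 0.

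Of the TIM23 channel, motor and processing group all 11 members had a positive change in both genotypes, with medians of 0.10 in FLOX mice and 0.09 in mice labelled MKO, and 3 and 4 of them passed. Among all genes 50.6% and 50.5% had a positive change, and 4.66% and 6.64% were called higher. Timm44 rose in both, by 0.21 ± 0.04 in FLOX mice (1.16-fold; adjusted p = 0.00263) and by 0.16 ± 0.04 in mice labelled MKO (1.12-fold; 0.00635). In the mice labelled MKO its lowest level on CR, 1650, lay above the highest on the control diet, 1625. The FLOX groups overlapped, between 2081 and 2091. With suffixed probe sets left out the call in mice labelled MKO was lost.

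Timm50 rose by 0.19 ± 0.05 (adjusted p = 0.0104) in FLOX mice, from 752, 800 and 840 to 876, 916 and 965 without overlap, and by 0.14 ± 0.04 (0.0281) in mice labelled MKO, from 593, 723 and 791 to 761, 781 and 821. Both calls were lost with suffixed probe sets left out. The second was also lost with only the groups compared, without the arrays brightest in slow fibre markers, and without CR MKO mouse 1, 5 or 7 or mouse 4 of control-diet MKO (adjusted p up to 0.061). Grpel1 rose in FLOX mice from 2113, 2245 and 2468 to 2493, 2586 and 2850, without overlap (log2 change 0.22 ± 0.04, adjusted p = 0.0013). In mice labelled MKO it gave 0.11 ± 0.04 (adjusted p = 0.0498), a call that 7 other settings ended. Leaving out any of 20 single mice also ended it (all but control-diet FLOX 3 and 6, control-diet MKO 2 and 7, CR FLOX 6 and CR MKO 3), with an adjusted p up to 0.112.

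Timm17a rose in the mice labelled MKO by 0.17 ± 0.03 (adjusted p = 0.00128), from 3681, 3998 and 4256 to 4170, 4442 and 4672, and gave 0.06 ± 0.04 in FLOX mice (0.371). On CR the mice labelled MKO thus still lay below every FLOX mouse of either diet, whose lowest value was 4767. The other channel, motor and peptidase genes named did not pass in either genotype. Timm23 gave 0.08 ± 0.05 and 0.12 ± 0.04 (adjusted p = 0.344 and 0.0559). In mice labelled MKO it was called higher with the replicate block (0.0445), under quantile normalization (0.0358), the trend and robust variance model (0.0463), the 50th percentile filter (0.04998) and the mean over probe sets (0.0496). Hspa9 gave 0.09 ± 0.07 and 0.07 ± 0.06 (0.456 and 0.492), and Pmpcb 0.13 ± 0.07 and 0.01 ± 0.06 (0.259 and 0.919).

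At the outer membrane 0 of 9 members passed in either genotype, with medians of -0.05 and -0.03 and a largest change of -0.12 (Tomm40l in FLOX mice). Among all genes 10.0% passed in FLOX mice and 15.1% in mice labelled MKO. Tomm20 gave -0.09 ± 0.05 in FLOX mice and -0.05 ± 0.05 in mice labelled MKO, Tomm22 0.09 ± 0.04 in both, Tomm40 0.03 ± 0.06 and 0.11 ± 0.06, and Tomm70a -0.03 ± 0.06 and 0.05 ± 0.05. In the mean over its probe sets Tomm22 was called higher in both genotypes, at 0.10 each (adjusted p = 0.0492 and 0.0174). Samm50, lower by genotype, gave 0.03 ± 0.04 and 0.04 ± 0.04 (adjusted p = 0.734 and 0.51). One of the 3 other Tomm70a probe sets gave 0.20 and 0.17 with adjusted p of 0.00864 and 0.00936 in a fit over all probe sets, so the gene's response to diet depends on the probe set read.

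In the intermembrane space 2 of 7 members rose in FLOX mice and 3 of 7 in mice labelled MKO, and of the TIM22 complex 1 of 3 in each. Among all genes 4.66% and 6.64% rose. In each genotype 3 of the 7 and 2 of the 3 had a negative change. The small TIM chaperones Timm10 and Timm13 had lower group means on CR in both genotypes and were not called. Timm9, Timm8a1 and Timm10b rose in both genotypes. Timm9 read 406, 429 and 456 in control-diet FLOX mice and 471, 491 and 548 on CR, without overlap (log2 change 0.21 ± 0.05, adjusted p = 0.00841, lost with suffixed probe sets left out). In mice labelled MKO it gave 0.15 ± 0.05 (adjusted p = 0.0298), lost under median centring, with only the groups compared, without the arrays brightest in slow fibre markers, and without CR MKO mouse 1, 3 or 5 or mouse 2, 4, 5 or 7 of control-diet MKO (up to 0.0802). Timm8a1 gave 0.22 ± 0.07 in FLOX mice (adjusted p = 0.0393) and 0.25 ± 0.06 in mice labelled MKO (0.00706). The FLOX call was lost under median centring, in the mean over probe sets and without CR FLOX mouse 1, 5 or 6 or mouse 2, 3 or 5 of control-diet FLOX (up to 0.114).

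Timm10b, which sits on the TIM22 complex, gave 0.13 ± 0.04 in FLOX mice (adjusted p = 0.0433) and 0.17 ± 0.04 in mice labelled MKO (0.00339). In FLOX mice its probe set without a suffix gave -0.24 (adjusted p = 0.217), and the call was lost under median centring, in the mean over probe sets, with only the groups compared, and without CR FLOX mouse 1, 2, 5 or 6 or mouse 2, 3, 4 or 5 of control-diet FLOX (up to 0.111). In mice labelled MKO it was lost with suffixed probe sets left out. Timm8b rose in mice labelled MKO, by 0.13 ± 0.04 (adjusted p = 0.0161), lost with only the groups compared and without the arrays brightest in slow fibre markers. In FLOX mice it gave 0.05 ± 0.04 (adjusted p = 0.58).

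By diet 10.0% of all genes were called in FLOX mice and 15.1% in mice labelled MKO. Dnaja3 was the 1 of 4 matrix chaperones called under CR. It read 2243, 2346 and 2446 in control-diet FLOX mice and 2566, 2762 and 2894 on CR, without overlap, and 1748, 1946 and 2261 against 2120, 2199 and 2405 in mice labelled MKO, with overlap. The log2 changes were 0.22 ± 0.05 (adjusted p = 0.00342) and 0.16 ± 0.04 (0.0122). Both calls were lost in the mean over its 3 probe sets. The probe set without a suffix gave -0.19 in FLOX mice (adjusted p = 0.166), and the call in mice labelled MKO was lost there too. Hspd1 gave -0.03 ± 0.05 and -0.06 ± 0.04, and Hspe1 0.14 ± 0.08 and 0.17 ± 0.08, none of which passed (adjusted p = 0.736, 0.355, 0.358 and 0.168).

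Of 7 protease and prohibitin members, 1 passed in each genotype. That is near the share of all genes that passed, 10.0% in FLOX mice and 15.1% in mice labelled MKO. Afg3l2 gave 0.23 ± 0.07 in FLOX mice (1802, 2071 and 2111 against 1977, 2383 and 2708; adjusted p = 0.0345) and 0.07 ± 0.07 in mice labelled MKO (0.557). The call was lost in the mean over probe sets, with suffixed probe sets left out, with the replicate block and without CR FLOX mouse 2, 4, 5 or 6 or mouse 3 or 5 of control-diet FLOX (up to 0.0993). Phb2 rose in mice labelled MKO from 2393, 2672 and 3245 to 3087, 3172 and 3447 (log2 change 0.27 ± 0.06, 1.2-fold, adjusted p = 0.00169), and gave 0.18 ± 0.06 in FLOX mice (0.0654), where it was called under quantile normalization (0.0206) and in the mean over probe sets (0.014). The groups overlapped in both genes. Lonp1 gave -0.06 ± 0.04 in both genotypes (adjusted p = 0.452 and 0.397) and Clpp 0.02 ± 0.05 and 0.08 ± 0.05 (0.897 and 0.271).

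Markers of connective tissue moved with the diet. The summed intensity of 7 fibroblast and matrix genes was 15152 to 21705 (median 18781) in control-diet FLOX mice and 9636 to 14231 (11585) on CR, and 15539 to 20764 (17449) against 8300 to 14357 (12060) in mice labelled MKO. In each genotype 5 of the 7 were called lower, where 5.37% of all genes fell in FLOX mice and 8.49% in mice labelled MKO. The 6 endothelial markers summed to medians of 5293 and 4814 in FLOX mice and 5079 and 4247 in mice labelled MKO, with 2 and 5 called lower. The 7 macrophage and leukocyte markers summed to 5277 and 3916, and 4637 and 3464, with 2 and 1 called lower. For both of these lists the ranges of the 2 diets overlapped in each genotype. The part of these changes in the rises of the members was not tested.

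No member's response to CR differed between genotypes past the threshold. The interaction, the change on CR in mice labelled MKO minus that in FLOX mice, was called in 0 of 41 members and in 0.00% of all genes by limma. An unadjusted p below 0.05 was reached by 1 member and by 720 of 14847 genes (4.85%). That member was Timm17a (0.11 ± 0.05, 95% confidence interval 0.00 to 0.21, unadjusted p = 0.0414, adjusted p = 0.999). The next were Grpel1 (-0.10 ± 0.06, -0.22 to 0.01, unadjusted p = 0.0828) and Chchd4 (0.11 ± 0.06, -0.02 to 0.24, unadjusted p = 0.0839). The interval extended a median of 0.14 to each side, and 0.62 for Gfer, and 0 adjusted calls do not show that the responses were alike. A call in 1 genotype or on 1 diet alone was therefore not shown to differ from the other.

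Set against each gene's mean over the 26 mice, the median deviation of the 41 members in a mouse was 0.06 to 0.10 in CR FLOX mice (median 0.09), -0.00 to 0.07 in control-diet FLOX mice (0.04), -0.05 to 0.01 in CR mice labelled MKO (-0.02) and -0.19 to -0.01 in control-diet mice labelled MKO (-0.06). The FLOX mice of each diet lay above the mice labelled MKO on that diet. The closest pair on the control diet was FLOX mouse 2 at -0.005 and MKO mouse 3 at -0.015. Over all genes those 2 arrays had medians of 0.009 and -0.053, so relative to all genes their order was the reverse. Control-diet mice labelled MKO were the dimmest group by mean for 19 of 41 members, beside 4369 of 14847 genes, and CR FLOX mice the brightest for 21, beside 4018 genes. The lowest mouse, at -0.19, was control-diet MKO mouse 4, which is also 1 of the 2 arrays brightest in slow fibre markers.

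**Figure D4:**
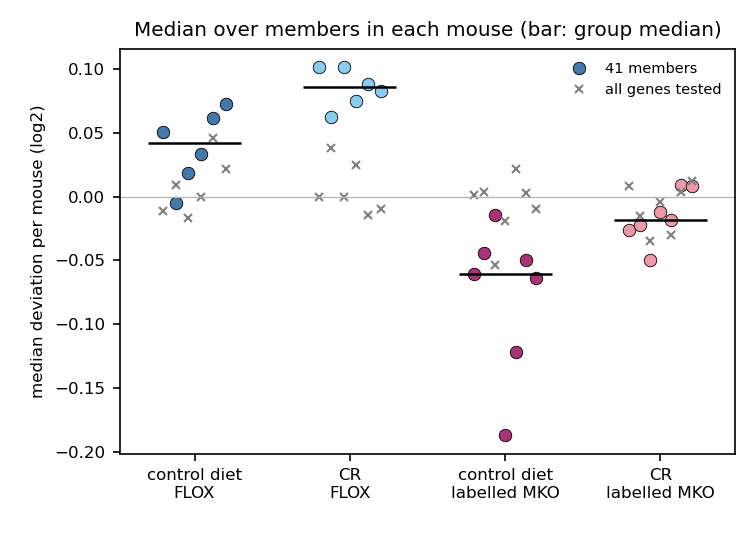
Median over the 41 members of log2(intensity + 16) minus the gene's mean over 26 mice, 1 filled point per mouse by group, with the same over all genes tested as grey crosses and the group median as a bar. CR FLOX mice sit highest (0.06 to 0.10) and control-diet mice labelled MKO lowest (-0.19 to -0.01).

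**Figure D5:**
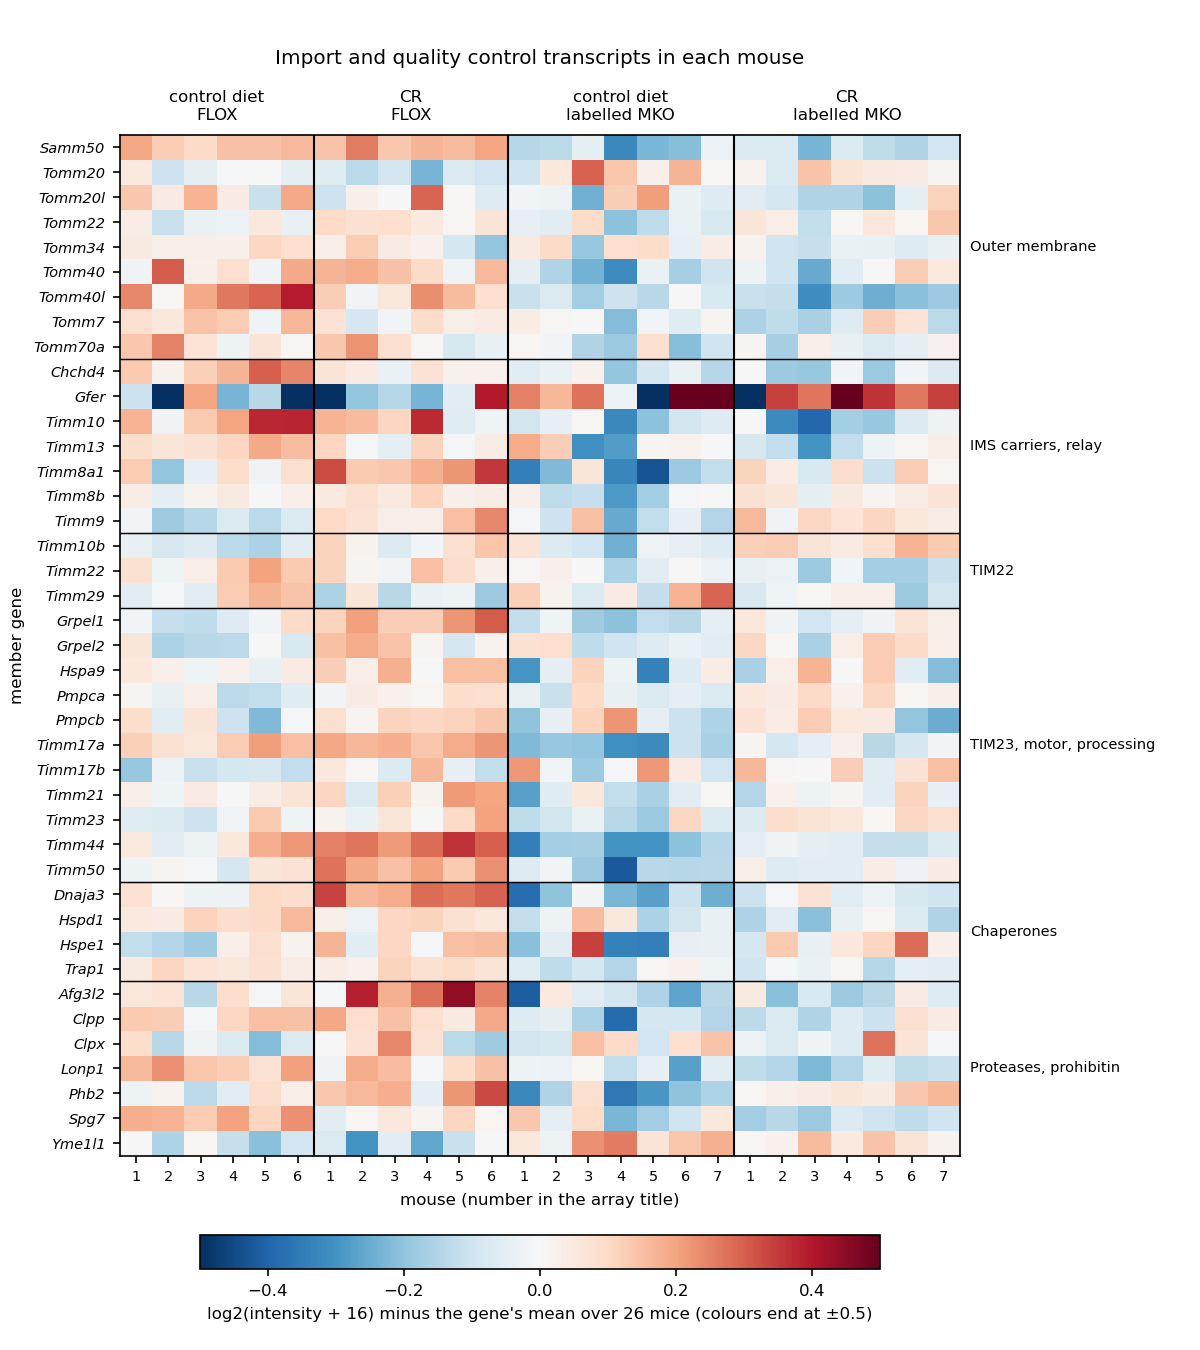
Deviation of log2(intensity + 16) from the gene's mean over 26 mice for each tested member (rows, by role) in each mouse (columns, by group); red is above and blue below the mean, with colours ending at ±0.5. Samm50 turns from red in every FLOX mouse to blue in every mouse labelled MKO. Tomm40l, Timm17a, Timm44 and Lonp1 do so in most mice, and Gfer varies most from mouse to mouse.

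Genes of the same pathways that the naming rule did not take were also mostly lower by genotype. Of 14 other import genes tested, 6 fell and 0 rose in mice labelled MKO on each diet (medians -0.10 and -0.12). Of 10 other quality control genes, 4 fell on the control diet and 6 fell and 1 rose on CR (medians -0.13 and -0.14). Among all genes 10.2% fell on the control diet and 9.05% on CR. The change was negative in 11 of the 14 and 9 of the 10 on each diet, against 55.7% and 56.6% of all genes. Dnajc15, a J-protein of the import motor, read 2168, 2290 and 2477 in control-diet FLOX mice and 1565, 1808 and 1897 in control-diet mice labelled MKO, and 2267, 2527 and 2640 against 1649, 1798 and 1948 on CR, apart on both diets (log2 change -0.37 ± 0.05 and -0.46 ± 0.05, adjusted p = 2.87e-06 and 5.77e-08). Mtx2, an outer membrane partner of Samm50, fell by 0.27 ± 0.06 and 0.29 ± 0.06 (adjusted p = 0.00168 and 0.000752). Bcs1l, an inner membrane chaperone of respiratory complex III, fell by 0.22 ± 0.04 on CR (adjusted p = 0.00061).

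Parl, the rhomboid protease of the inner membrane, was called in all 4 comparisons. It read 1501, 1552 and 1661 in control-diet FLOX mice and 1651, 1762 and 1899 in CR FLOX mice, and 1302, 1367 and 1475 and 1483, 1536 and 1577 in the mice labelled MKO. It rose on CR by 0.17 ± 0.04 and 0.16 ± 0.03 (adjusted p = 0.00242 and 0.00224) and was lower by genotype, -0.18 ± 0.04 and -0.20 ± 0.04 (0.000485 and 0.000132). By diet 1 other import gene rose and 1 fell in FLOX mice, and 2 other quality control genes rose, where 10.0% of all genes were called. In mice labelled MKO 0 other import genes were called and 2 other quality control genes rose, where 15.1% of all genes were called. Called higher beside Parl were Pitrm1, which degrades presequences, at 0.25 ± 0.06 in FLOX mice (adjusted p = 0.012), Dnajc30 at 0.19 ± 0.05 in FLOX mice (0.0246), and Stoml2, a prohibitin relative, at 0.18 ± 0.04 in mice labelled MKO (0.00318). Mtx1, an outer membrane partner of Mtx2, fell in FLOX mice by 0.70 ± 0.21 (adjusted p = 0.035), from 1497, 2099 and 3857 to 847, 1527 and 1880, with overlap.

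Of 9 genes for regulators of mitochondrial gene expression and the stress response, 0 were called by diet in either genotype. By genotype 2 fell and 1 rose on both diets, where 19.3% of all genes were called on the control diet and 17.3% on CR. Esrra, which encodes ERRα, fell by 0.53 ± 0.05 and 0.48 ± 0.05 (adjusted p = 3.53e-08 and 1.11e-07), from 1729, 1884 and 2018 to 1167, 1335 and 1368 on the control diet, without overlap. Ddit3, the stress factor CHOP, fell by 0.26 ± 0.08 and 0.25 ± 0.08 (adjusted p = 0.0199 and 0.0288). Yy1 rose by 0.35 ± 0.06 and 0.28 ± 0.06 (adjusted p = 0.00022 and 0.0018).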

How the data were processed

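Total RNA of 26 mice was measured on Affymetrix arrays. The values are intensities on a linear scale as deposited by the authors; the authors' correction and normalization are not given in the sources used here. They were taken as log2(intensity + 16), so log2 changes of dim genes are compressed. Of 45101 probe sets, 34945 name 1 gene, 932 several and 9160 none. Probe sets with a mean at or above the 30th percentile were kept, and the brightest per gene stood for it. All 26 arrays were fitted with limma 3.58.1 (R 4.3.3), 1 mean per group, with Benjamini-Hochberg adjustment over 14847 genes and calls at 0.05. The steps were tested on simulated data in which 200 genes were changed in 1 group. Of genes changed by 0.2 on the log2 scale 48% were called, and of those changed by 0.4, 92%. False calls made up 6.04% of the calls. Changes near 0.2 can thus be missed. The number of arrays limits the precision. Named were 16 members by role, the 6 called members of smallest p per diet or genotype comparison, the 3 of smallest interaction p, and the 3 called related genes of smallest p; Gfer, Clpx, Timm10, Timm17b, Timm22 and other members outside this rule were chosen after their values were seen, as were the regulators. Members, lists and motifs were chosen with earlier results of these data known. Alternatives were the pseudocount, filter, normalization, probe set choice, variance model, arrays fitted, a replicate block and each mouse left out.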

Additional observations from a re-analysis of the deposited data

Results flagged for a closer look

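In 9 of 164 sets of 1 gene in 1 group, a single mouse lay further from the rest than Dixon's 95% criterion allows; chance flags about 1 in 20 such sets. Of these, 3 were the lowest value of control-diet MKO mouse 4: Clpp at 855, Timm50 at 593 and Tomm7 at 1706. The other low mice were control-diet FLOX mouse 3 in Clpp (1115), CR MKO mouse 1 in Gfer (621) and CR MKO mouse 3 in Grpel2 (719). The high mice were control-diet MKO mouse 3 in Pmpca (2956), CR MKO mouse 5 in Clpx (1707) and CR FLOX mouse 4 in Tomm20l (312).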

How the results depend on the processing

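Of 56 calls of a member in a diet or genotype comparison, 31 were kept under all alternatives and 42 with any single mouse left out. Another 26 results of a member that were not called passed under at least 1 alternative or with 1 mouse left out. With suffixed probe sets left out, the members called fell from 8 to 3 for CR in FLOX mice and from 10 to 4 for CR in mice labelled MKO, among 35 tested. Among all genes 9.23% and 14.1% were called under that setting. For CR in mice labelled MKO the count was 6 with only the groups compared and 6 without the arrays brightest in slow fibre markers, an alternative chosen after seeing the data. Those fits called 11.6% and 10.7% of all genes. Genotype counts lay between 14 and 23 on the control diet and between 15 and 22 on CR, and the interaction gave 0 throughout. Leaving out 1 mouse gave 5 to 10 for CR in FLOX mice, 7 to 12 for CR in mice labelled MKO, 16 to 21 and 16 to 20 for genotype on the control diet and on CR, and 0 for the interaction. Changes of sign came from the choice of probe set. With suffixed probe sets left out, CR in FLOX mice gave -0.19 for Dnaja3 and -0.24 for Timm10b, and genotype on the control diet gave -0.54 for Timm10b, -0.14 for Pmpcb and 0.14 for Tomm70a; the mean over probe sets gave -0.12 for Timm10b.

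Of 37 same-numbered pairs of mice, 16 deviated together with a correlation over 0.1 (median 0.08), and 2 of 26 mice correlated best with their own number, so the numbers were not taken to pair the mice. With the number as a replicate block the members called were 7 and 11 for CR in FLOX mice and in mice labelled MKO, 18 and 19 for genotype on the control diet and on CR, and 0 for the interaction. The cause of these differences was not tested. With the settings used throughout, the smallest change called in a member was 0.11 on the log2 scale.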
